A study of Homo sapiens with 14 samples.

Results

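The comparison described here set 3 libraries in which an antibody directed an RNA-editing enzyme to the splicing regulator RBFOX2 against 3 Buffer-only libraries, all made from 100 pg of total RNA. The 6 libraries were chosen by their sample titles, from 14 libraries in the series. All 6 came from methanol-fixed HEK293T cells, a transformed line of embryonic kidney origin that the labels also call HEK293XT. In the RBFOX2 libraries the fixed cells received an antibody against RBFOX2 and then a fusion of the cytidine deaminase APOBEC1 to a nanobody that binds the antibody. The Buffer-only cells received neither antibody nor enzyme. A single Enzyme-only library at the same input received the enzyme without antibody; it has no replicate, so its values stand beside the comparison with no replicate check. Replicates were wells of the same cells on separate slides, so every p-value below measures the spread between these wells, which is technical, and nothing in this design speaks of other cells or lines.

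RBFOX2 is an RNA-binding protein that recognises the hexamer UGCAUG through its RNA recognition motif. It is best known for binding introns beside alternative exons, where it regulates their inclusion, and it also occupies 3′ untranslated regions (3′UTRs). APOBEC1 deaminates cytidine to uridine, with a preference for a cytidine preceded by adenosine or uridine, so an enzyme held at a bound protein leaves C-to-U edits in the RNA nearby, which are read as C-to-T mismatches. An edit marks where the enzyme reached the RNA, at some distance from the protein, and not the bound bases themselves.

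The measured units were edit sites: single genomic C positions at which reads of 1 library carried T, each with its number of edited reads, its coverage and a confidence score. The following 30-base windows show 3 positions that were edited in all 3 RBFOX2 libraries, in no Buffer-only library and not in the Enzyme-only library, and that lie beside UGCAUG. They are written 5′ to 3′ on the strand of the transcript from hg38, with T for U, and with the edited C and the hexamer in capitals.
CALM2, 3′UTR, chr2:47160552-47160581, minus strand: atcaagtaaCatgtTGCATGtggcttactc
HIGD1A, 3′UTR, chr3:42784791-42784820, minus strand: caaaaagTGCATGgaatataaCttgtaaag
PLS3, coding sequence, chrX:115649510-115649539, plus strand: ggtcatgaCtgtgttTGCATGtttgatggg
In CALM2, which encodes the calcium sensor calmodulin, T was read in 9 of 815, 19 of 1099 and 11 of 888 reads in RBFOX2 replicates 1 to 3, an edit level of 1.104%, 1.73% and 1.24%. In HIGD1A, a small protein of the inner mitochondrial membrane, the counts were 7 of 300, 6 of 378 and 7 of 234 reads, or 2.33%, 1.59% and 2.99%. In PLS3, an actin-bundling plastin, they were 4 of 120, 4 of 87 and 10 of 123 reads, or 3.33%, 4.60% and 8.13%. In 2 windows the edited C lay 5′ of the hexamer and in HIGD1A 3′ of it, and each edit was carried by a small minority of the reads.

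The RBFOX2 libraries held 26554, 27437 and 27311 sites and the Buffer-only libraries 21140, 20788 and 18650. Every listed site had at least 5 reads. The files list edited positions only and give no coverage of unedited ones. A library or gene with more sites may therefore have been edited more, sampled by more reads or held more RNA copies, and these cannot be told apart here. Reads summed over the listed sites numbered 1521080 to 1617706 in the RBFOX2 libraries and 807493 to 1018264 in the Buffer-only libraries. Of the markers of embryonic kidney lines, 12 of 14 genes had a site in at least 1 of the 6 libraries, against 3 of 12 mature kidney genes and 4 of 18 blood, immune, liver, fibroblast and neuron genes. Summed sites ranged over the 6 libraries from 18 to 50 for the first list, from 0 to 5 for the second and from 2 to 6 for the third.

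Exact two-sided permutation tests over 3 against 3 libraries cannot go below p = 0.1, a value reached when the groups do not overlap. In all, 164 per-library values were compared in this way, of which 115 gave that smallest p, with a Benjamini-Hochberg adjusted value of 0.143; no single value could pass 0.05.

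Most of the excess of sites with RBFOX2, 5679 of 6908 by the means, lay on the strand of the genes. Sites that lay on a gene's own strand numbered 13651, 13895 and 13864 in the RBFOX2 libraries and 8467, 8269 and 7638 in the Buffer-only libraries. The groups were far apart, at means of 13803 ± 133 (SD, n = 3) and 8125 ± 433, a ratio of 1.70 (exact permutation p = 0.1). Sites where genes lie on both strands (3198 ± 27.8 against 2323 ± 206) and sites outside genes (1307 ± 66.2 against 1114 ± 91.8) were also more numerous in every RBFOX2 library. On the strand opposite to genes, where a C-to-T mismatch cannot come from editing of the gene's own transcript, there were 8476, 8968 and 8934 sites against 9007, 8973 and 7912. These overlapped (8793 ± 275 against 8631 ± 623; exact permutation p = 1). The gene-strand share of sites in genes was 61.1% ± 0.52 with RBFOX2 and 48.5% ± 0.582 with Buffer-only, so Buffer-only sites fell about equally on both strands. Edited reads differed more than sites did, with 57271 ± 1602 against 20902 ± 1274 reads on the gene strand, a ratio of 2.74. The Enzyme-only library held 12039 gene-strand sites and 8687 opposite-strand sites, and thus lay between the groups on the gene strand, nearer to RBFOX2.

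The nucleoside 5′ of the edited C also separated the groups. Gene-strand sites after adenosine numbered 4869, 4974 and 4842 with RBFOX2 and 1742, 1676 and 1591 with Buffer-only, a ratio of means of 2.93. Sites after uridine numbered 4268, 4335 and 4317 against 2256, 2238 and 2060, a ratio of 1.97. Sites after cytidine differed by a ratio of only 1.05 (2208 against 2102; exact permutation p = 0.3) and those after guanosine by 1.104 (2394 against 2168; exact permutation p = 0.1). Adenosine therefore accounted for 56.8% and uridine for 37.4% of the gene-strand difference between the groups. The share of gene-strand sites after A or U was 66.7% ± 0.521 with RBFOX2, 47.5% ± 0.308 with Buffer-only and 60.9% (95% Wilson interval 60.03 to 61.8%, counting error only) with Enzyme-only. On the opposite strand it was 53.8% against 53.9% (exact permutation p = 1), so the sequence context differed between groups on the gene strand and the difference was not detectable on the other.

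**Figure D1:**
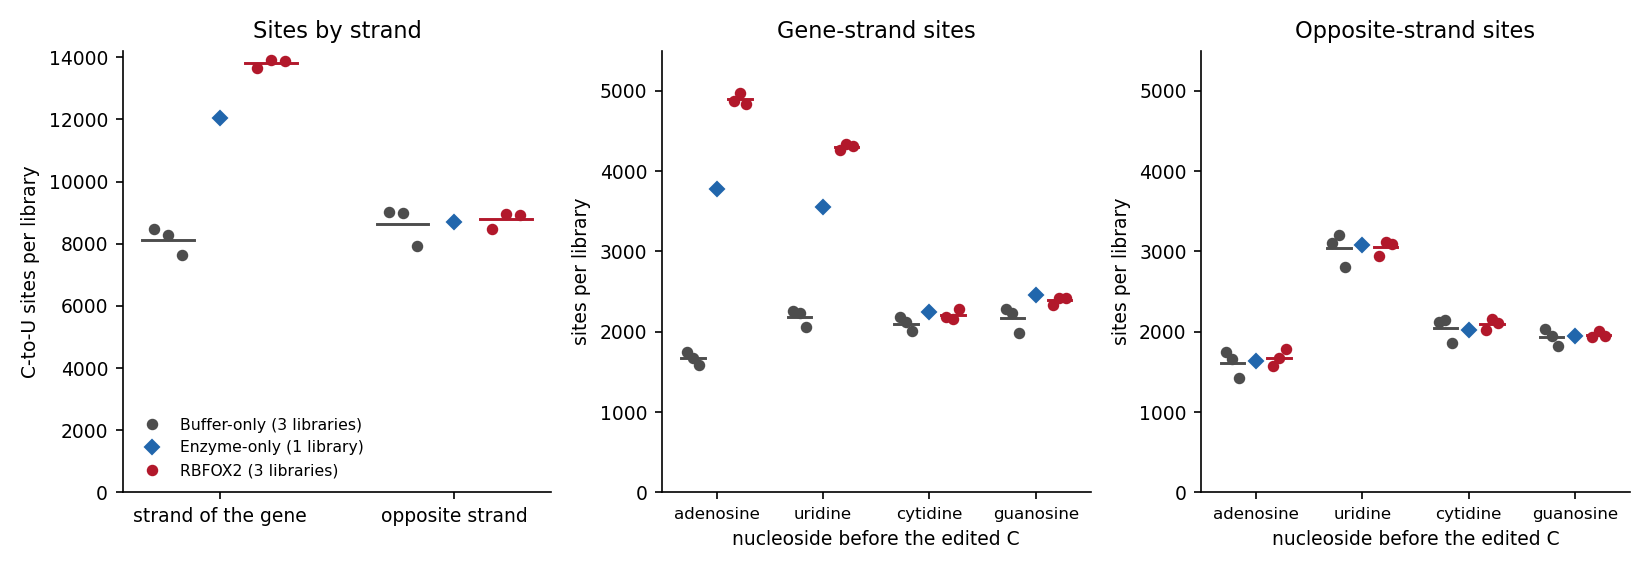
Number of edit sites per library by strand relative to genes (left), and of gene-strand (middle) and opposite-strand sites (right) by the nucleoside 5′ of the edited C. Points are libraries, bars the mean of 3, and diamonds the single Enzyme-only library; RBFOX2 libraries stand above Buffer-only on the gene strand after adenosine (ratio 2.93) and uridine (1.97), and the groups overlap on the opposite strand as a whole.

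Among transcript regions, the 3′UTR carried most of the difference. Gene-strand 3′UTR sites numbered 5105, 4984 and 5028 with RBFOX2 and 2037, 2083 and 1892 with Buffer-only, means of 5039 ± 61.2 and 2004 ± 99.7 and a ratio of 2.51 (exact permutation p = 0.1). The groups did not overlap, and 3′UTR sites made up 53.4% of the gene-strand difference. The coding sequence held 3465 ± 56.6 against 2165 ± 96.1 sites, a ratio of 1.60, and the 5′UTR 632 ± 23.7 against 433 ± 33.7, a ratio of 1.46. Introns held 3711, 3997 and 3924 sites against 3211, 3037 and 2815, a ratio of 1.28, the lowest of the 5 region kinds. Exons of noncoding transcripts held 791 ± 82.0 against 501 ± 24.02 sites. All 5 ratios were above 1 on the gene strand, whereas on the opposite strand the ratios of the same regions lay between 0.958 and 1.05.

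As shares of the gene-strand sites, the 3′UTR took 36.5% ± 0.792 with RBFOX2 and 24.7% ± 0.572 with Buffer-only, and introns 28.1% against 37.2%. The coding share was 25.1% ± 0.622 against 26.7% ± 0.309. The Enzyme-only library placed 29.9% (95% Wilson interval 29.1 to 30.8%) of its sites in 3′UTRs, between the groups. Its 3875 intron sites were as many as in the RBFOX2 libraries (3877 ± 149), whereas its 3603 3′UTR sites were fewer than in any RBFOX2 library. Within 3′UTRs, RBFOX2 sites lay somewhat farther from the end of the canonical transcript, at a median of 896 against 804 nt, and 32.7% against 36.2% of them lay within 500 nt of it. The 3′UTR share also differed within classes of coverage: it was 20.9% against 14.7% at sites with 5 to 19 reads, 43.6% against 33.8% at 20 to 99 reads and 55.2% against 39.4% at 100 or more reads.

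**Figure D2:**
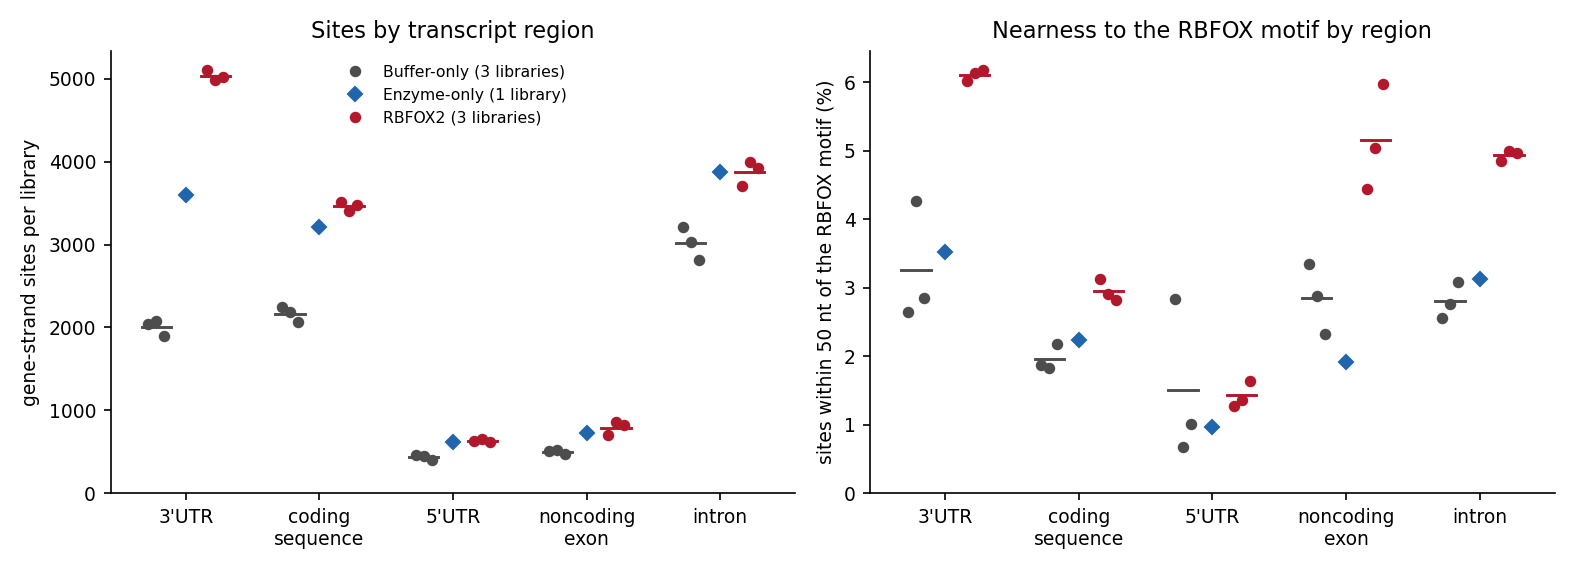
Gene-strand edit sites per library by transcript region (left) and the percentage of those sites within 50 nt of the RBFOX motif (right). Points are libraries, bars the mean of 3, and diamonds the Enzyme-only library; the 3′UTR shows the widest gap in number (5039 against 2004) and the 5′UTR shows no gap in the percentage near the motif.

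RBFOX2 sites lay near UGCAUG more often than Buffer-only sites. Of the gene-strand sites, 4.66%, 4.73% and 4.78% lay within 50 nt of a UGCAUG on the same strand in the RBFOX2 libraries, and 2.46%, 2.79% and 2.63% in the Buffer-only libraries. The means were 4.72% ± 0.0617 and 2.63% ± 0.169, with no overlap (exact permutation p = 0.1). In number these were 636, 657 and 663 sites against 208, 231 and 201, a ratio of 3.06, above the ratio of 1.70 of gene-strand sites as a whole. Here the Enzyme-only library stood with the Buffer-only libraries: its share was 2.82% (95% Wilson interval 2.54 to 3.14%), from 340 sites. On the strand opposite to genes the share was 2.36% against 2.31% (exact permutation p = 0.5). As a base rate, 3.03% of all C positions in canonical 3′UTRs and 2.21% of those in canonical coding sequences lie within 50 nt of the hexamer.

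The Enzyme-only library was also set beside the difference by feature. Its excess of gene-strand sites over the Buffer-only mean equalled 68.9% of the RBFOX2 excess. For coding sites this was 80.7%, for intron sites 99.7% and for 3′UTR sites 52.7%. For sites near UGCAUG it was 28.9%, and for 3′UTR sites near UGCAUG 25.3%. Reads summed over the listed sites numbered 1428415 in Enzyme-only, against 807493 to 1018264 in Buffer-only. Editing, read sampling and RNA copies cannot be told apart in these percentages, and a split by cause was not tested. The RBFOX2 mean exceeded Enzyme-only by a ratio of 1.15 for all gene-strand sites, 1.92 for those near UGCAUG and 2.43 for those near UGCAUG in 3′UTRs. With 1 Enzyme-only library these ratios have no replicate error on their lower side.

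The hexamer difference was found at sites after A or U, the context APOBEC1 prefers. Among gene-strand sites after A or U, 5.70% lay near UGCAUG with RBFOX2 and 2.53% with Buffer-only. Among those after C or G the shares were 2.77% and 2.71% (exact permutation p = 0.9). It was also graded by the number of edited reads at a site. Among sites with 1 edited read, which were similarly numerous in both groups (5888 against 5474; exact permutation p = 0.2), 2.77% against 2.67% lay near the hexamer (exact permutation p = 0.6). With 2 edited reads the shares were 4.40% and 2.58%. With 3 to 9 edited reads they were 6.36%, 6.13% and 6.40% against 2.49%, 3.13% and 1.39%, over 4983 against 1387 sites. With 10 or more they were 6.59%, 7.85% and 8.78% against 2.19%, 3.95% and 4.28%, over 1342 against 276 sites. The groups did not overlap from 2 edited reads upward, and the Enzyme-only library, at 2.99% and 2.69% in the upper 2 classes, lay within the range of Buffer-only. Along the same classes the share after A or U was 50.9%, 63.7%, 81.1% and 85.3% with RBFOX2, while with Buffer-only it was 48.1%, 46.3%, 45.4% and 48.3%.

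Coverage differed between the groups, with a median of 26.7 reads per gene-strand site against 19.7, so nearness to the hexamer was also set out within coverage classes. At sites with 5 to 19 reads the share was 4.31% against 2.78%, at 20 to 99 reads 4.79% against 2.53%, and at 100 or more reads 5.54% against 2.21%. The direction was the same in all 3 classes, and in the Enzyme-only library the lowest and highest class held 3.45% and 1.72%.

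**Figure D3:**
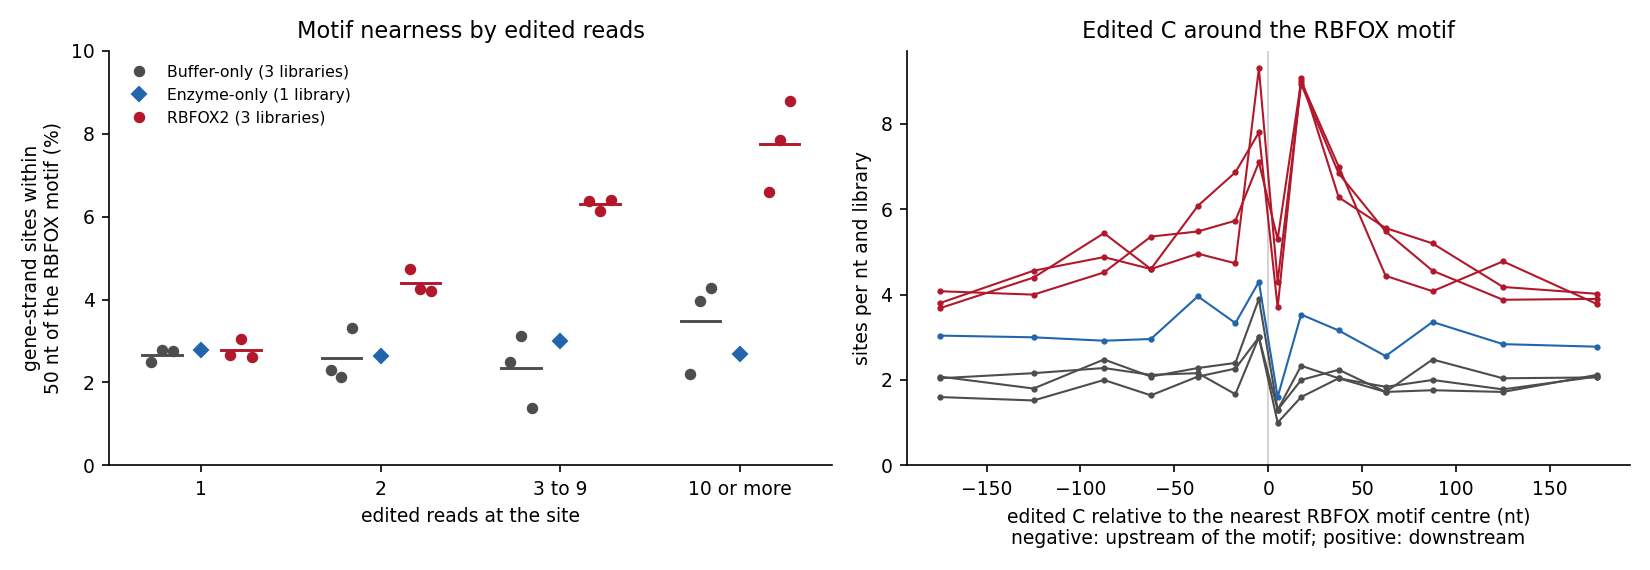
Percentage of gene-strand sites within 50 nt of the RBFOX motif by number of edited reads at the site (left), and number of gene-strand sites per nt of distance from the motif centre (right; negative distances are sites upstream of the motif). RBFOX2 and Buffer-only overlap at 1 edited read (2.77% against 2.67%) and separate from 2 edited reads upward; per distance, the widest gap lies just downstream of the motif.

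The excess of edits lay on both sides of the hexamer, and none was detected at the C inside it. That C follows guanosine, a context in which gene-strand sites differed little between the groups (ratio 1.104). Position and sequence context cannot be told apart there. The C inside UGCAUG itself was edited at 19, 17 and 12 positions with RBFOX2 and at 9, 22 and 19 with Buffer-only, which overlapped (exact permutation p = 1). Sites that lay 3′ of their nearest hexamer numbered 347 ± 16.5 against 94.3 ± 8.08, a ratio of 3.68, and sites 5′ of it 289 ± 28.0 against 102 ± 6.81, a ratio of 2.82. The ratio was highest between 10 and 25 nt downstream of the hexamer, with 134, 135 and 136 sites against 30, 35 and 24, a ratio of 4.55. Between 150 and 200 nt away it was 1.87 downstream and 2.02 upstream. Of the sites near UGCAUG, 80.4% followed A or U with RBFOX2 and 45.7% with Buffer-only, and 47.3% against 30.5% lay in 3′UTRs. They carried 3173, 3309 and 3793 edited reads against 472, 542 and 437, a ratio of 7.08, with 1280 in Enzyme-only.

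By region, the share of sites near UGCAUG was higher with RBFOX2 in 3′UTRs, coding sequence, introns and noncoding exons. In 3′UTRs it was 6.11% ± 0.0889 against 3.26% ± 0.884 (308 against 65.7 sites, a ratio of 4.69); Buffer-only replicate 2 stood highest of its group at 4.27%. In introns, where RBFOX2 acts on splicing, it was 4.94% against 2.80% (192 against 84.3 sites). Intron sites within 500 nt of an exon held 4.89% against 2.28%, and those farther away 4.95% against 2.92%, so the difference was present at both distances. In coding sequence the shares were 2.95% and 1.96%, in noncoding exons 5.15% and 2.85%, and in 5′UTRs 1.43% and 1.51% (exact permutation p = 1). The placement of intron sites relative to exons did not separate the groups, since 19.2% against 18.9% lay within 500 nt of one (exact permutation p = 0.7).

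Other short sequences, searched on the site's own strand within the same 50 nt, did not show this difference. UGUGUG, the repeat bound by TDP-43, lay near 4.28% against 4.13% of gene-strand sites (exact permutation p = 0.7). CAUGCA, the reverse complement of UGCAUG, which can overlap it, lay near 2.72% against 2.68% (exact permutation p = 0.9), and GUACGU, the hexamer reversed, near 0.512% against 0.479% (exact permutation p = 0.6). GCACG, a weaker RBFOX sequence, lay near 2.78% against 3.16%, lower with RBFOX2 (exact permutation p = 0.1). GCAUG not preceded by U was counted only at sites with no UGCAUG within 50 nt. Such sites made up 6.08% ± 0.27 against 6.27% ± 0.177 of all gene-strand sites (exact permutation p = 0.4). Of UGCAUG and the 5 sequences searched beside it, UGCAUG was the only one whose share was higher in all 3 RBFOX2 libraries than in all Buffer-only libraries.

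Most positions were edited in a single library. Over the 6 libraries 136317 positions were edited, of which 133160 (97.7%) were found in exactly 1 library and 185 in all 6. Repetition on the gene strand was nevertheless more frequent among RBFOX2 libraries. Of gene-strand sites, 3.40% ± 0.104 were found in another library of the group with RBFOX2, against 2.20% ± 0.0448 with Buffer-only. On the opposite strand this was 5.12% against 5.65%, lower in every RBFOX2 library. The RBFOX2 libraries held more sites at higher coverage on the gene strand, and repetition was not adjusted for either. Leaving out positions also found in the other group, 2.51% ± 0.13 of RBFOX2 gene-strand sites were found in another RBFOX2 library, against 0.696% ± 0.068 for Buffer-only, and on the opposite strand 1.29% against 1.31% (exact permutation p = 1). Of gene-strand positions found in 2 RBFOX2 libraries and no Buffer-only library there were 473, of which 69.1% lay in 3′UTRs, 86.9% followed A or U and 14.6% lay near UGCAUG. The reverse set held 73 positions, 1.37% of them near UGCAUG. Positions found in a single RBFOX2 library numbered 39631, with 4.48% near the hexamer, and those in a single Buffer-only library 23463, with 2.58%. The share near the hexamer was thus highest among repeated RBFOX2 positions.

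Positions edited in all 3 RBFOX2 libraries and no Buffer-only library numbered 43, against 23 the other way. On the opposite strand there were 14 against 11. On the gene strand there were 24 against 6. Of the 24, 14 lay in 3′UTRs, 21 followed A or U and 5 lay near UGCAUG, and none of the 6 lay near it. The 3 windows printed above belong to these 5. Others of the 24 lay in MZT1, which recruits the gamma-tubulin complex to spindle poles, where a single 3′UTR position was edited in 7 of 169, 14 of 192 and 17 of 301 reads. Also among the 24 were positions in HPRT1, the purine salvage enzyme, RAB11A, a small GTPase of recycling endosomes, and HSPA9, the mitochondrial HSP70 chaperone.

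Clusters, the stretches in which the authors' caller found edits above the local background, were called from these sites and differed between the groups in the same direction. There were 13160, 13614 and 13567 with RBFOX2 and 9912, 9629 and 8864 with Buffer-only, a ratio of 1.42, and 12837 in Enzyme-only. Clusters that hold UGCAUG numbered 275, 271 and 264 against 95, 115 and 100, or 2.01% against 1.09% of clusters, with 1.07% (95% Wilson interval 0.904 to 1.26%) in Enzyme-only. The groups did not overlap in either number, and Enzyme-only was near RBFOX2 in the first and near Buffer-only in the second. Clusters with a single edited base made up 41.7% against 65.9%, and clusters overlapping a cluster of another library of the group 10.02% ± 0.426 against 5.96% ± 0.263.

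Sites were then counted per gene. Gene-strand sites were found in 5961 genes per library with RBFOX2 and 4966 with Buffer-only. For the test, 1159 genes with at least 3 sites in at least 3 libraries were kept from 14136 with any site. Of these, 553 reached 3 sites in every RBFOX2 library and 125 in every Buffer-only library, and the rest needed libraries of both groups. The RBFOX2 libraries alone thus met the filter far more often than the Buffer-only libraries alone, and counts over these genes are descriptions. With edgeR's quasi-likelihood test and normalization by the trimmed mean of M-values (TMM), which centres on the typical gene, no gene passed an adjusted p of 0.05 in either direction (0.0% higher and 0.0% lower). The lowest adjusted p was 0.248. At an unadjusted p under 0.05, 118 genes (10.2%) were higher and 20 (1.73%) lower with RBFOX2; DESeq2 also called 0 genes, with 67 and 9 unadjusted. Without RBFOX2 replicate 1, edgeR called 2 genes higher (SDCBP and CALM2) and 1 lower (ARMH4), and without RBFOX2 replicate 3 it called SDCBP. Scaled instead to each library's opposite-strand sites, which did not differ between groups, 103 genes (8.89%) were called higher and 0 lower (0.0%), and the median log2 fold change over the tested genes was 0.81 in place of 0.10. A simulation with 1159 genes at this depth recovered 31% of genes changed by a factor of 4 and 2% of those changed by a factor of 2.

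Each gene's part of the library's gene-strand sites was higher in every RBFOX2 library than in any Buffer-only library for 190 of the tested genes (16.4%), and lower for 68 (5.87%). The genes named in the following paragraphs as higher are the 15 of the first of these sets with the largest differences of mean sites, ties broken by edited reads, and HIGD1A, named for its repeated position. Fold changes are log2 values from the edgeR fit on sites, relative to the typical gene, with their standard error. SLIT2, a secreted ligand of ROBO receptors that guides axons (chr4:20251905-20620561, plus strand), held 43, 47 and 44 sites with RBFOX2 and 21, 20 and 19 with Buffer-only. A higher share in every RBFOX2 library was the rule of choice, so the gap between groups is a description. Enzyme-only held 42 SLIT2 sites. The fold change was 0.40 ± 0.12 (edgeR adjusted p = 0.456) against 1.13 when scaled to opposite-strand sites (edgeR adjusted p = 0.000173). MZT1 (chr13:72708367-72727629, minus strand) held 13, 6 and 24 sites against 0, 0 and 1, a fold change of 4.34 ± 0.95 (edgeR adjusted p = 0.248), with 4 sites in Enzyme-only. HIGD1A (chr3:42782908-42804490, minus strand) held 7, 8 and 12 sites against 0 in each Buffer-only library. The RBFOX2 sum was 9 times a floor of 3 sites set for the Buffer-only sum. This ratio depends on the chosen floor and, unlike the fold changes, was not scaled to library totals. Enzyme-only held 1 HIGD1A site, and other annotated genes of the same strand cover all of these positions.

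HNRNPC, which binds uridine tracts in nascent RNA, held 8, 14 and 11 sites against 1, 0 and 1 (fold change 3.12), with 6 in Enzyme-only. HNRNPK, which binds cytidine-rich RNA, held 16, 12 and 15 against 6, 2 and 0 (1.64), with 11 in Enzyme-only. SRSF11, an arginine- and serine-rich splicing factor, held 8, 10 and 23 against 5, 1 and 2 (1.58), with 11 in Enzyme-only. Non-overlap of the groups follows from how these genes were chosen. Buffer-only HNRNPK and SRSF11 each had 1 library well above the others. RBM26, an RNA-binding zinc finger protein, held 16, 7 and 15 against 3, 2 and 2, and BCLAF1, a nuclear RNA-associated protein, 13, 16 and 13 against 1, 7 and 4.

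The others of this set spanned signalling, cytoskeleton, traffic and chromatin. IRS4, an insulin receptor substrate, held 21, 15 and 10 sites against 3, 5 and 3 (1.29 ± 0.45). ENAH, an actin regulator of the Ena/VASP family, held 13, 23 and 12 against 6, 5 and 4 (0.91), and 9 of its RBFOX2 sites and none of its Buffer-only sites lay near UGCAUG. RAB11A held 11, 19 and 6 sites against 1, 2 and 2 (2.03). RIF1, a regulator of replication timing and break repair, held 8, 13 and 19 against 2, 3 and 2. STAG2, a cohesin subunit, held 12, 8 and 14 against 2, 2 and 1, and here the single Enzyme-only library held more, 19. The ubiquitin-conjugating genes UBE2E2 and UBE2V2 held 19, 10 and 13 against 4, 5 and 2, and 15, 10 and 5 against 0, 1 and 0. AUTS2, a nuclear regulator of neuronal development, held 16, 14 and 17 against 8, 4 and 6 (0.63). None of these passed the adjusted threshold under TMM.

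Of the genes with a lower share in every RBFOX2 library, those named here had few sites. SPG7, a mitochondrial inner membrane protease subunit, held 1, 1 and 2 sites with RBFOX2 and 3, 5 and 7 with Buffer-only, and its log2 fold change was -2.53 (edgeR adjusted p = 0.248). GMDS, the first enzyme of GDP-fucose synthesis, held 2, 3 and 2 against 11, 3 and 6 (-2.19). ANKRD36C, whose close paralogs make its read placement uncertain, held 1, 5 and 3 against 9, 8 and 3, and ARMH4, 46.2% of whose sites also lie in another gene of its strand, 4, 0 and 0 against 8, 3 and 3. The site numbers themselves were apart in SPG7 and overlapped or met in GMDS, ANKRD36C and ARMH4. Apart from the 2 sites of ARMH4 near UGCAUG, none of their RBFOX2 sites lay near it.

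Ranked instead by RBFOX2 sites near UGCAUG, CALM2 (chr2:47160084-47176921, minus strand) led with 5, 6 and 7 such sites against a Buffer-only sum of 1 and none in Enzyme-only. In all it held 12, 17 and 19 sites against 1, 0 and 7, with Buffer-only replicate 3 well above the other 2 (fold change 1.79); another annotated gene covers its sites on the same strand. MPRIP, which links myosin phosphatase to actin, followed with 3, 10 and 0, so its 13 sites rest on RBFOX2 replicate 2. FUBP3, a single-stranded nucleic acid binding protein, held 5, 4 and 2 near the hexamer and 14, 7 and 6 sites in all against 1, 1 and 0 (2.84). HPRT1 held 3, 2 and 5 near it and 5, 11 and 14 in all against 1, 1 and 2 (2.08). PGRMC1, a haem-binding membrane protein, held 1, 6 and 2 near it, and KDELR2, the receptor that returns proteins to the endoplasmic reticulum, 5, 1 and 3; DAGLB, annotated on the same strand, covers the sites of KDELR2. FUBP3, HPRT1, PGRMC1 and KDELR2 each had no Buffer-only site near UGCAUG, and of these KDELR2 alone had 1 in Enzyme-only. Over all genes, 1142 had a site near UGCAUG in any RBFOX2 library and 573 in any Buffer-only library. Of the former, 35 had one in every RBFOX2 library and in no Buffer-only library, against 0 the other way. With at least 2 libraries these were 158 and 15. The RBFOX2 libraries held more such sites to begin with, and these counts were not adjusted for that.

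**Figure D4:**
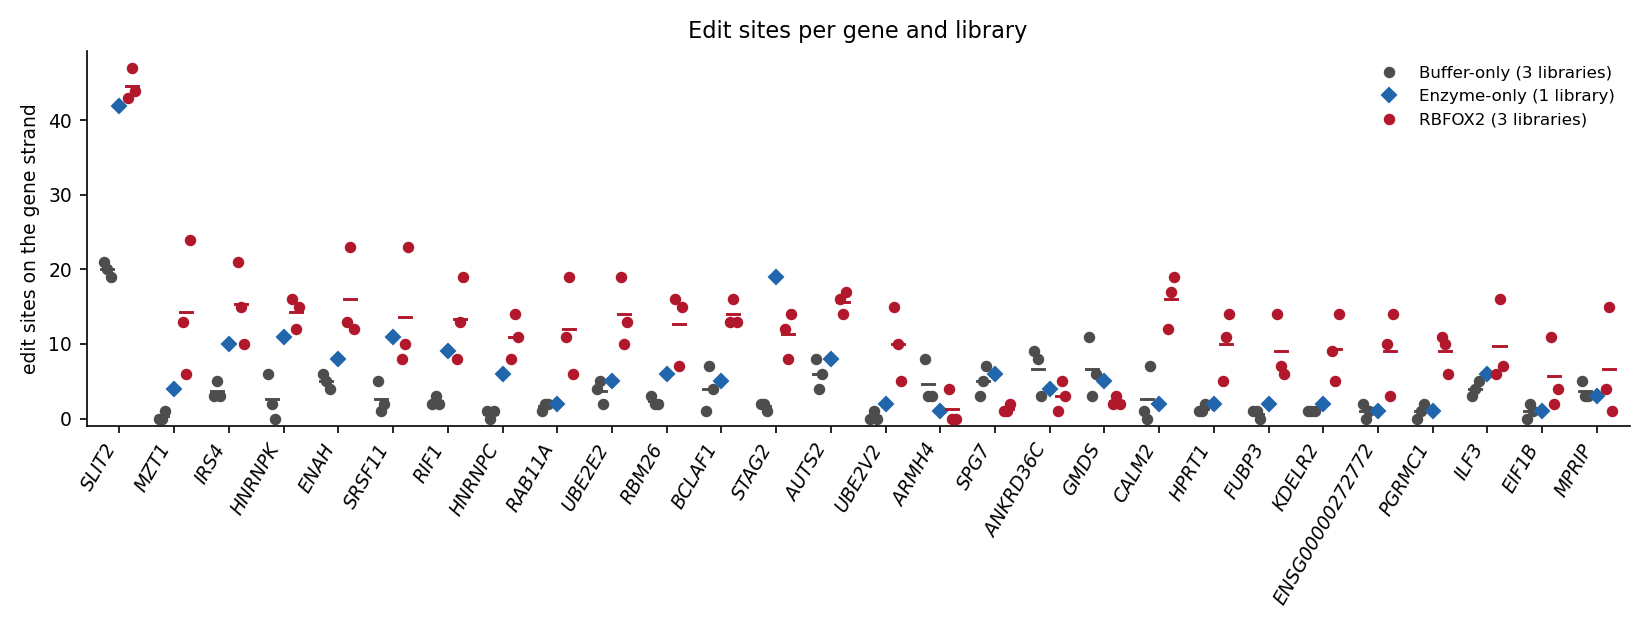
Gene-strand edit sites per gene and library for genes with a higher share in every RBFOX2 library, genes with a lower share, and genes with the most sites near the RBFOX motif. Points are the 3 RBFOX2 and 3 Buffer-only libraries and diamonds the Enzyme-only library; SLIT2 stands highest at 43 to 47 against 19 to 21 sites, and in STAG2 the Enzyme-only library exceeds all RBFOX2 libraries.

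Gene groups were described by counts and medians beside those of the 1159 tested genes, of which 10.2% were higher at an unadjusted p under 0.05 and whose median fold change was 0.10. Of the SR splicing factors, 8 were tested, 4 were higher at that level and the median was 1.39. The summed sites of this list were 68, 69 and 86 against 24, 18 and 17, a ratio of 3.78 beside 1.63 over all genes. Enzyme-only held 45 sites of the list. SRSF1, SRSF3 and SRSF7 were among them: SRSF1 held 6, 7 and 16 sites against 0, 0 and 1, SRSF3 held 7, 9 and 8 against 1, 1 and 2, and SRSF7 8, 6 and 9 against 0, 2 and 1. Of 13 hnRNP genes 4 were higher, with a median of 0.48 and summed sites of 134, 108 and 109 against 43, 51 and 34, and 93 in Enzyme-only. Of 7 core spliceosome genes 3 were higher, with a median of 0.72, and of 12 genes for SR-related proteins 2, with a median of -0.05. The summed sites of the last 2 lists were 84 and 78 in Enzyme-only. The RBFOX2 means were 105 and 89.7 and the Buffer-only means 48.3 and 45.7. None of these 4 lists had a gene lower at that level, beside 1.73% of all tested genes. By share of library sites, 5 of the tested hnRNP genes were higher in every RBFOX2 library and 1, RALY, was lower. Of all tested genes these were 16.4% and 5.87%. The 6 tested regulators of tissue-specific splicing had 0 higher and 0 lower and a median of 0.16.

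The small calcium and phosphoprotein adaptors, 14-3-3 proteins and calmodulins, had 5 tested genes, of which 3 were higher, with a median of 1.79. Their sums were 52, 47 and 61 against 18, 7 and 21, with 32 in Enzyme-only. Of 14 chaperone genes 4 were higher (median 0.77), of 13 translation factor genes 2 (0.59), of 9 membrane traffic genes 2 (0.79) and of 6 respiratory chain genes 2 (1.18). In this order, the summed sites of these 4 lists were 111, 101, 102 and 104 in Enzyme-only. The RBFOX2 means were 140, 136, 141 and 98.7, and the Buffer-only means 51, 53, 51.3 and 43.3. Chromatin regulators stood near the background, with 3 of 32 higher and a median of 0.14, and nuclear transport genes had 0 of 15. Of 78 cytoplasmic ribosomal protein genes only 2 entered the test, although 73 had a site. The sums of this list were 53, 64 and 85 against 38, 33 and 43, with 50 in Enzyme-only. The DUXAP pseudogenes, near-identical copies whose reads cannot be placed with certainty, held 41, 52 and 51 sites against 46, 40 and 42; 2 of the 3 tested were lower at an unadjusted p under 0.05 under TMM, beside 1.73% of all tested genes, and 0 higher, but the median of the list was -0.63 under TMM and 0.09 scaled to opposite-strand sites.

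The genes that the study displayed as RBFOX2 or TDP-43 examples are given by their site numbers. APP, the amyloid precursor protein, held 14, 10 and 4 sites with RBFOX2 and 4, 1 and 4 with Buffer-only, which meet at 4 (fold change 0.86 ± 0.64; edgeR adjusted p = 0.636). Near UGCAUG it had 2, 4 and 0 sites against none. NUCKS1, a nuclear chromatin-associated protein shown for TDP-43, held 21, 15 and 10 against 2, 7 and 4, apart, with a fold change of 1.05 (edgeR adjusted p = 0.398). XPO1, the nuclear export receptor, held 7, 7 and 12 against 4, 1 and 3, also apart. OGT, PKM, DEPDC1, DCUN1D4 and TARDBP overlapped between the groups. These genes were chosen by the study on related libraries, so their direction is not independent evidence. The RBFOX2 transcript itself held 4, 3 and 7 sites against 2, 4 and 2, of which 4 and 4 lay near UGCAUG.

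The same antibody and buffer arms at 1 ng are given side by side, with no test between inputs. Gene-strand sites were 26108 ± 651 against 9165 ± 547 at 1 ng and 13803 ± 133 against 8125 ± 433 at 100 pg. The share near UGCAUG was 6.19% against 2.47% at 1 ng and 4.72% against 2.63% at 100 pg, and the share after A or U 77.9% against 47.5% and 66.7% against 47.5%. The 3′UTR share was 43.9% against 30.2% at 1 ng. In each of these 4 values the lowest RBFOX2 library exceeded the highest Buffer-only library at both inputs. The share near UGUGUG was likewise apart at 1 ng, at 4.73% against 3.90%. At 100 pg it overlapped between the groups, at 4.28% against 4.13%. Of the named genes, SLIT2 held a mean of 93.7 against 28.7 sites at 1 ng, APP 21 against 1, ENAH 38 against 7 and CALM2 7 against 2. The genes named as lower at 100 pg did not stand lower at 1 ng, apart from ANKRD36C by little (4.33 against 4.67). The 1 ng means were 2.33 against 1.33 in SPG7, 5.0 against 3.67 in GMDS and 5.33 against 1.33 in ARMH4.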

How the data were processed

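Edit sites and edit clusters from 3 RBFOX2, 3 Buffer-only and 1 Enzyme-only library at 100 pg were analysed, with 6 libraries at 1 ng for values side by side. Per the labels and the study's methods, the authors trimmed reads with cutadapt, removed repeat reads, aligned to hg38 with STAR 2.4.0, and called C-to-T sites with SAILOR, keeping a score above 0.5, an edit fraction under 0.8 and positions outside dbSNP. The deposited sites carry this score and, as a pair of whole numbers, edited reads and coverage. The deposited clusters (FLARE, false discovery rate 0.1, merged within 15 nt) carry counts of edited and target bases, an edit fraction, a mean depth signal and a score. The kit is not stated to keep strand, and site strand is that of the called C.

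Sites were placed on Gencode 44 genes (the authors used 29) with priority 3′UTR, 5′UTR, coding sequence, noncoding exon, intron. UTRs and coding sequence came from protein-coding transcripts only, a choice made after the shares were seen. Sites per gene were tested with edgeR 4.0.16 in R 4.3.3 (TMM, quasi-likelihood, Benjamini-Hochberg), after requiring at least 3 sites in at least 3 libraries and 5 in all; DESeq2 1.42.0 was an alternative. Counts per gene include sites where another gene lies on the other strand. Per-library values used exact permutation tests, and the Wilson intervals came from SciPy 1.17.1. The edgeR step was tested on simulated data: 0 of 959 unchanged genes were called. Named genes were the study's examples, the RBFOX2 gene and the leading genes by site difference, sites near UGCAUG and repeated positions; some are not reported here. The members, lists and tests were chosen with earlier results of these data known. Confident peaks pooled over replicates were not used here. Intervals cover counting error only.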

Additional observations from a re-analysis of the deposited data

Results flagged for a closer look

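The single Enzyme-only library, which the comparison of RBFOX2 with Buffer-only does not use, lay above all 3 Buffer-only libraries in many values, its total of sites and of edited reads among them. The 9 such values among the main per-library results are listed for that reason. It held 12039 gene-strand sites, which were 58.1% of its sites in genes, and 12837 clusters. Of its gene-strand sites 29.9% lay in 3′UTRs and 60.9% followed A or U, and their median coverage was 25 reads. It also lay above Buffer-only, by little, in the share of gene-strand sites near UGCAUG (2.82%), of intron sites near UGCAUG (3.12%) and of gene-strand sites near UGUGUG (4.63%). With 1 library none of these has a replicate check, and the cause was not tested.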

How the results depend on the processing

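Of 579 values recomputed under alternatives for 51 results, 536 kept their direction and their side of the threshold or count. The 4 reversals came from leaving out 1 library, in differences that were within the spread between replicates to begin with: the RBFOX2 minus Buffer-only difference ranged from -0.0568 to 0.138 percentage points near CAUGCA, from -0.0315 to 0.326 near UGUGUG and from -0.310 to 0.950 for intron sites within 500 nt of an exon, and from -197 to 350.2 for opposite-strand sites. Of the 21 per-library results, the other 17 did not reverse under leaving out a library, a coverage of at least 10 reads, a score of at least 0.9 (clusters 0.99), a motif distance of 25 or 100 nt, or other transcripts; with decay-marked transcripts included the 3′UTR share was 44.7% against 32.96%. The number of genes called higher, 0 with edgeR under TMM, was 103 scaled to opposite-strand sites, 1 without scaling (SLIT2), 6 without a filter and 5 on edited reads, and 0 to 2 when 1 library was left out (SDCBP and CALM2 without RBFOX2 replicate 1, SDCBP without RBFOX2 replicate 3). The number called lower was 4 on edited reads and 0 to 1 when 1 library was left out (ARMH4 without RBFOX2 replicate 1). The causes were not tested. Replicate numbers did not pair the samples: same-numbered deviations correlated at -0.0312, 0.004 and -0.018. With the replicate block 2 genes were called higher (MZT1 and HIGD1A) and 0 lower, and the same-number difference near UGCAUG was 2.10 percentage points, with 0.25 the smallest p that 3 sign flips can give. The alternatives restricted to sites after A or U and to classes of coverage or edited reads were chosen after seeing the data. In simulation at this depth and replicate number, 2% of genes changed by a factor of 2 were recovered; other depths were not simulated.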
